A study of Ovis aries with 32 samples.

Results

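RGS2, a regulator of G-protein signaling, was read on these sheep gene arrays by 3 of 15008 probes: A_70_P006726, A_70_P012621 and A_70_P012622. The last 2 carry the symbol RGS2 in the array's gene column. The study lists RGS2, without a probe name, among the genes that differed in the left ventricular free wall, and A_70_P006726 was taken as the probe behind that entry. Its gene column holds only a transcript cluster name, and its description calls that cluster RGS2 by likeness to the cow gene. The gene was thus chosen by its measured difference between treatments in the left ventricle, and that difference is described here without a test. It is 1 of 1033 genes with a symbol on the array. The hearts came from lambs killed at 14 days of age. Their mothers had received no infusion (Control) or cortisol (CORT) at 0.5 mg per kg per day, begun at about day 115 of pregnancy and, by the study's methods, given overnight until delivery, and the lambs themselves were not treated. Both the left ventricular free wall (LV) and the interventricular septum (IVS) were sampled, with 8 lambs per treatment and tissue and 1 array per sample, 32 arrays in all. The study's methods give a twin pair in each treatment, so lambs of a group may share a ewe.

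RGS2 is a small protein that speeds the hydrolysis of GTP on activated G-protein alpha subunits, with a strong preference for the Gq class. It thereby shortens the signal of receptors such as the type 1 angiotensin II receptor, the endothelin receptors and the alpha-1 adrenergic receptors. In the heart and vessel wall it is known as a brake on Gq-driven myocyte growth and on vascular tone, and its own transcript is short-lived and readily induced.

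The 3 probes are shown because they read different stretches of the transcript and differed in the size of the cortisol difference. All sequences are those of the deposited array files. A_70_P012622 and A_70_P012621 lie next to each other, starting at bases 156 and 196 of the same expressed sequence tag, and share 20 bases, which are printed in capitals. A_70_P006726 starts at base 1001 of the transcript cluster to which the files assign all 3 probes, and its first 30 bases of 60 are given.
A_70_P012622: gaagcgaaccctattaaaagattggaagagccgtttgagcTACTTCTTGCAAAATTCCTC
A_70_P012621: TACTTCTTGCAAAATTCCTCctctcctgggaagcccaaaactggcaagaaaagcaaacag
A_70_P006726: cagaagcatttacaatcaataggtctgggg
No other probe on the array shared a run of 20 bases with any of them on either strand. The overlapping pair cannot count as independent measurements, since both can bind the same stretch of a labelled transcript. The files give no mapped genome position for these probes.

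All 3 probes were well above background on all 32 arrays, none was saturated and no spot was marked as an outlier. The raw spot of A_70_P006726 ranged from 179 to 948 intensity units over a local background of 35.5 to 58.0 units. The other probes were dimmer, at 98.0 to 231 units for A_70_P012621 and 77.5 to 195.0 units for A_70_P012622, so that a larger part of their signal was background. Levels below are normalized intensities on the log2 scale. On this scale a difference of a dim probe is compressed, and levels of different probes are not set against each other. The tissue was whole muscle, in which fewer cells of a type and less RNA per cell cannot be told apart. MB, the muscle oxygen store myoglobin and the one cardiomyocyte marker named on the array, lay between 17.30 and 18.37 on the log2 scale in all groups for its probe A_70_P029986, with 1 outlying IVS CORT spot left out. Across the arrays, 59.7% to 80.4% of the probes were well above background.

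In the left ventricle, RGS2 was higher in CORT than in Control lambs on all 3 probes. On A_70_P006726 the Control lambs had a lowest level of 7.92, a median of 8.66 and a highest of 9.13, while the CORT lambs had 8.50, 9.24 and 9.60. Control lambs averaged 8.53 and CORT lambs 9.14, with SDs of 0.43 and 0.39 (n = 8 each). The groups overlapped, although 5 of 8 CORT lambs lay above the highest Control lamb and 3 Control lambs lay below the lowest CORT lamb. The difference was 0.62 ± 0.19 (SE) on the log2 scale, a 1.53-fold higher level. Only 7 of the 11518 LV probes bright enough to test rose more, which describes the choice of the probe and is no independent evidence.

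The neighbouring probes moved by less in the left ventricle. A_70_P012621 averaged 7.32 in Control and 7.47 in CORT lambs, with SDs of 0.14 and 0.13 (n = 8 each), a difference of 0.15 ± 0.07 (SE). A_70_P012622 averaged 6.96 and 7.17, with SDs of 0.16 and 0.18, a difference of 0.21 ± 0.09 (SE). On both probes the groups overlapped, with 4 and 5 of 8 CORT lambs above the highest Control lamb. By comparison, 191 of 11518 LV probes, or 1.66%, were higher in CORT at an unadjusted limma p under 0.05, 3.85% passed that limit in either direction, and no probe passed after Benjamini-Hochberg adjustment over all of them. All 3 RGS2 probes were among those 191, a count from which nothing is read because the contrast chose the gene.

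**Figure D1:**
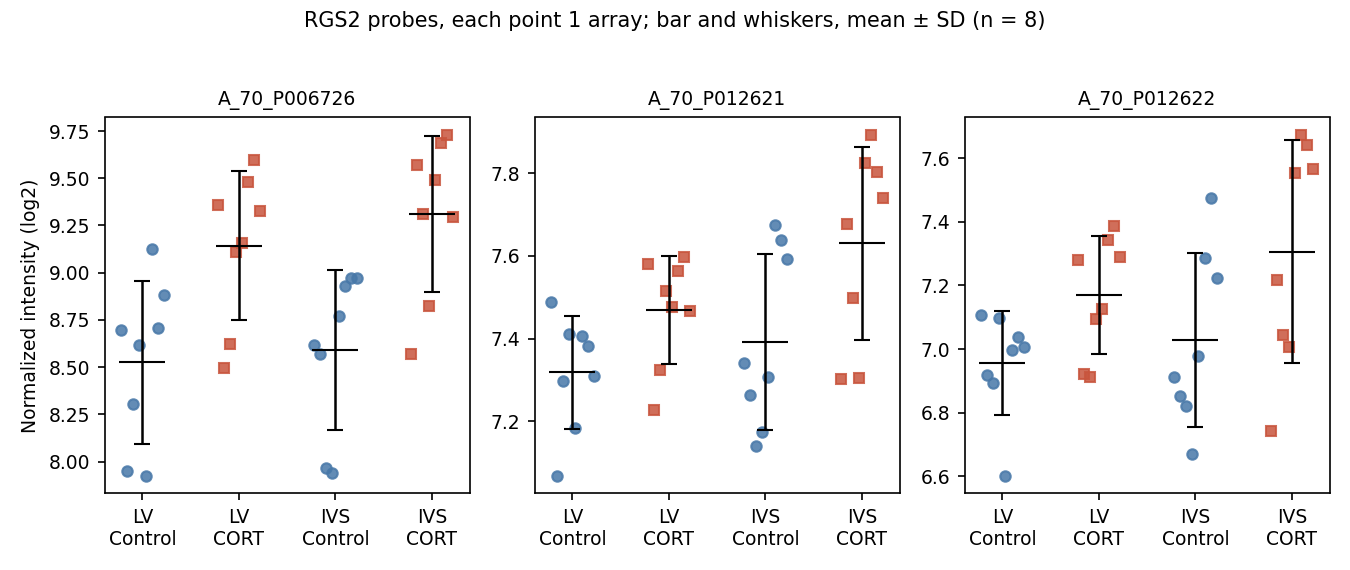
Normalized log2 intensity (vertical axis) of the 3 RGS2 probes on all 32 arrays, with LV and IVS Control lambs as circles and CORT lambs as squares, 1 point per array, and the mean ± SD of each group (n = 8). The CORT mean lies above the Control mean in every panel and tissue, with overlap of the single lambs, and each panel has its own vertical scale.

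In the septum RGS2 was also higher in CORT than in Control lambs on A_70_P006726. On A_70_P006726 the Control septa had a lowest level of 7.94, a median of 8.69 and a highest of 8.97, and the CORT septa had 8.57, 9.40 and 9.73. Here 6 of 8 CORT lambs lay above the highest Control lamb, and 7 of 8 lay above the Control mean. The mean rose from 8.59 ± 0.42 to 9.31 ± 0.41 (SD, n = 8 each), a difference of 0.72 ± 0.19 (SE) on the log2 scale with a 95% interval of 0.31 to 1.13, or 1.64-fold. The two-sided exact permutation test over all 12870 assignments of the lambs gave p = 0.0048. In limma the unadjusted p was 0.0018, but after Benjamini-Hochberg adjustment over the 11685 IVS probes tested it was 0.993, so the difference did not pass a correction for all probes. Of those probes 163, or 1.39%, were higher in CORT at an unadjusted p under 0.05, 3.59% passed it in either direction, and none passed the adjustment. The 2 tissues are not independent samples of lambs, since both carry the same set of lamb numbers in the labels, and the gene was chosen with the results of both known, so the septum is no independent support.

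The dimmer probes also lay higher in CORT septa, with weaker tests. A_70_P012621 had a lowest level of 7.14, a median of 7.32 and a highest of 7.68 in Control and 7.30, 7.71 and 7.89 in CORT. Its difference of 0.24 ± 0.11 (SE) gave an unadjusted limma p of 0.046, an adjusted p of 0.993 and an exact permutation p of 0.053. Leaving out single lambs moved that limma p between 0.019 and 0.094, and it stayed under 0.05 in 6 of the 16 cases. A_70_P012622 had a lowest level of 6.67, a median of 6.95 and a highest of 7.48 in Control and 6.74, 7.39 and 7.67 in CORT. Its difference of 0.28 ± 0.15 (SE) did not pass, with an unadjusted limma p of 0.079 and an exact permutation p of 0.099. Thus 2 of the 3 probes passed the unadjusted limma test in the septum, and of these the exact permutation test over all assignments passed only A_70_P006726.

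The arrays of each tissue were spread over several slides, each of which carries several arrays. The LV samples lay on slides 1 and 2, each with 4 lambs of either treatment, and the IVS samples on slides 3, 4 and 5. On slide 1 the Control levels of A_70_P006726 were 8.70, 7.95, 8.30 and 8.62, and the CORT levels were 9.36, 8.50, 8.62 and 9.11. On slide 2 the Control levels were 7.92, 9.13, 8.71 and 8.88, and the CORT levels were 9.16, 9.48, 9.60 and 9.33. On slide 2 all 4 CORT lambs lay above every Control lamb, whereas on slide 1 this held for 2 of 4, and the slide differences were 0.50 and 0.73. The first LV slide also gave the lower mean in both treatments, at 8.39 against 8.66 in Control and 8.90 against 9.39 in CORT.

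In the septum, slide 3 held 2 Control lambs at 8.62 and 8.57 and 2 CORT lambs at 8.57 and 9.57. Slide 4 held 3 Control lambs at 7.97, 7.94 and 8.77 and 2 CORT lambs at 9.31 and 8.83. Slide 5 held 3 Control lambs at 8.93, 8.97 and 8.97 and 4 CORT lambs at 9.49, 9.69, 9.73 and 9.29. All CORT lambs lay above all Control lambs on slides 4 and 5, while on slide 3 a CORT lamb was level with the 2 Control lambs. The slide differences were 0.48, 0.84 and 0.59. Slide 5 was the highest of the IVS slides in both treatments and held 4 of the 8 CORT septa but 3 of the 8 Control septa. With slide as a block the IVS difference was 0.64 ± 0.15 (SE) with an unadjusted limma p of 0.00070. That block brought 879 of the 11685 IVS probes under an unadjusted p of 0.05, against 419 without it. An exact permutation of the labels within slides, a test added after the data had been seen, gave p = 0.0038 over 2100 assignments.

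The other probes behaved alike on the slides. The CORT mean lay above the Control mean on all 5 slides for each of the 3 probes, which 20.9% of the tested LV probes did on both LV slides and 11.3% of the tested IVS probes did on all 3 IVS slides. For A_70_P012622 the difference was 0.05 on slide 1 and 0.38 on slide 2 in LV, and 0.10, 0.20 and 0.28 on slides 3, 4 and 5 in IVS. For A_70_P012621 it was 0.10 and 0.21 in LV and 0.19, 0.19 and 0.18 in IVS. Blocking on slide brought A_70_P012622 in the septum past the unadjusted limit, with a difference of 0.21 and a limma p of 0.012. In that blocked fit 879 IVS probes passed this limit, against 419 without the block. The exact permutation within slides, added after the data had been seen, gave p = 0.0029 for A_70_P012621 and p = 0.015 for A_70_P012622. Both thus passed with slides held apart, and neither passed the exact permutation over all assignments. The share of all probes that would pass the permutation within slides was not counted. These 2 probes overlap and the gene was chosen with these results known, so this is no independent support.

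**Figure D2:**
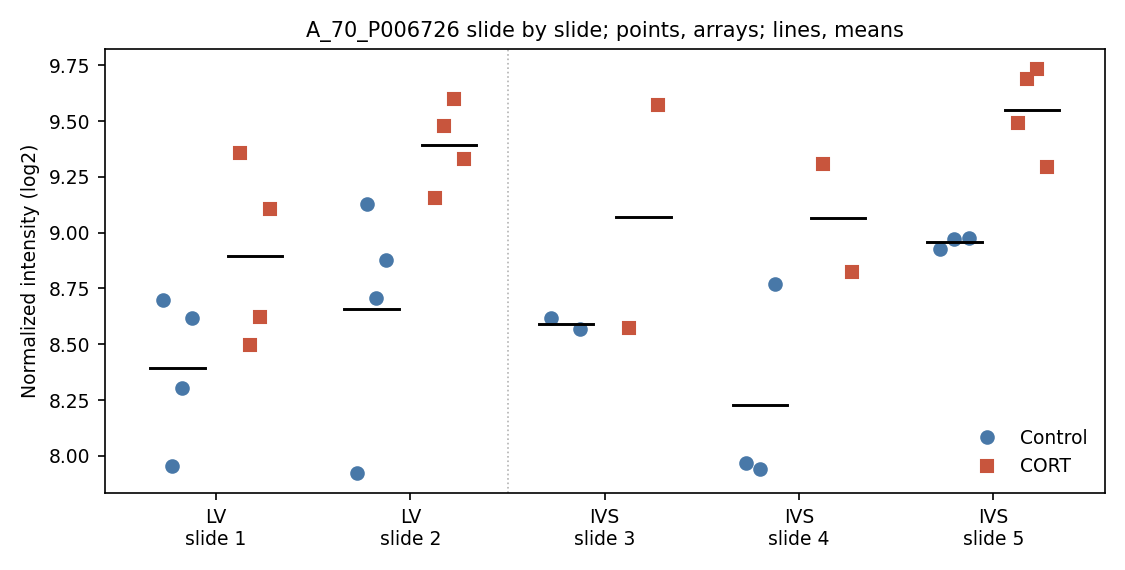
Normalized log2 intensity (vertical axis) of A_70_P006726 on each array, by slide and tissue (horizontal axis), with Control as circles, CORT as squares and the mean of each treatment on a slide as a line. The CORT mean is above the Control mean on all 5 slides, by 0.48 to 0.84, and the level of both treatments shifts between slides.

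The size of the difference depended on how background was handled, in proportion most for the dim probes. With a smaller constant added after background correction, the LV difference of A_70_P012622 went from 0.21 to 0.37 and that of A_70_P012621 from 0.15 to 0.23. For the brighter A_70_P006726 the same change moved it from 0.62 to 0.71. With the scanner software's own processed signal, the LV differences were 0.77, 0.31 and 0.59 for A_70_P006726, A_70_P012621 and A_70_P012622, and the IVS differences were 0.88, 0.43 and 0.64. With that signal the unadjusted limma p in IVS was 0.0035 for A_70_P006726, 0.050 for A_70_P012621, now just above the limit, and 0.089 for A_70_P012622. In the authors' own normalized matrix the differences were 0.63 in LV and 0.76 in IVS for A_70_P006726. The direction was upward on all 3 probes in both tissues under every alternative tried.

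**Figure D3:**
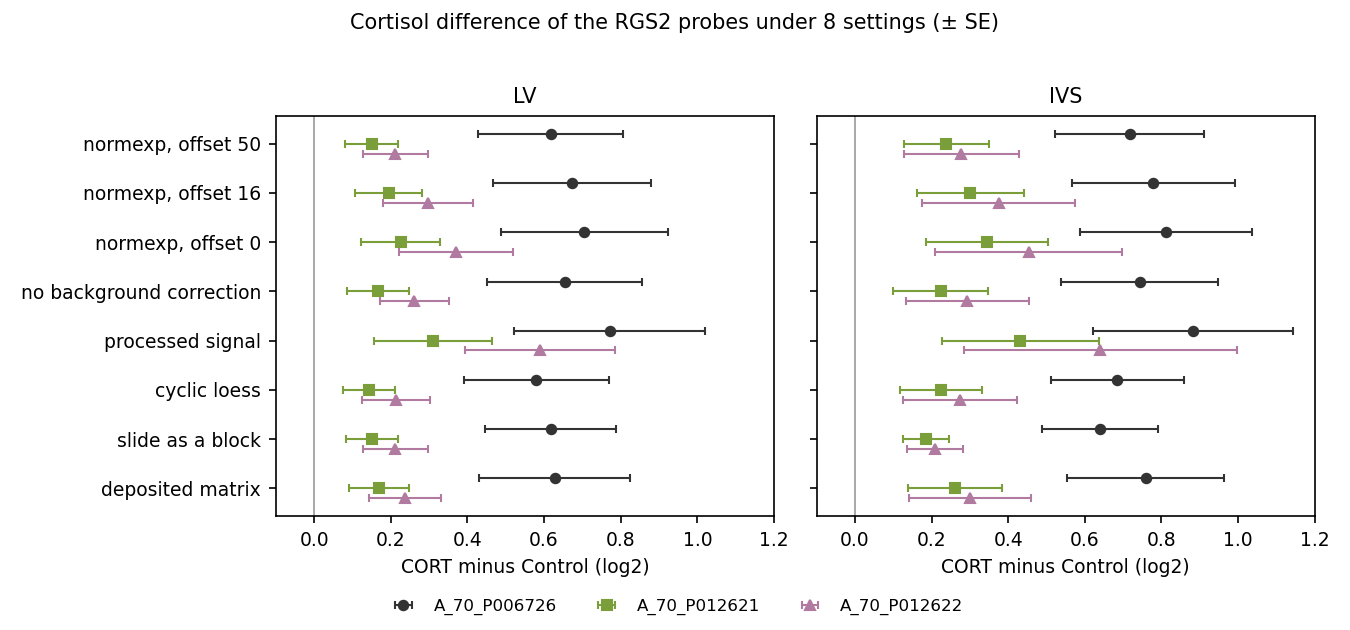
Difference of CORT minus Control (horizontal axis, log2, ± SE) of the 3 RGS2 probes in LV and IVS under 8 ways of processing the arrays (vertical axis). All points lie above 0, A_70_P006726 is the largest throughout, and the 2 dim probes move most with the background setting in proportion to their difference.

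Septum and free wall were then compared within each treatment, after joint normalization of the 32 arrays. The fit took the arrays as separate groups by tissue and treatment without a lamb term. Its intervals therefore make no use of septum and free wall coming from the same hearts. On A_70_P006726 the Control means were 8.60 in LV and 8.52 in IVS, and the CORT means were 9.22 in LV and 9.24 in IVS. IVS minus LV was -0.07 in Control lambs (95% interval -0.48 to 0.33, limma adjusted p = 0.87) and 0.02 in CORT lambs (95% interval -0.39 to 0.42, limma adjusted p = 0.99). For comparison, 21.1% of 12344 probes differed between the tissues in Control lambs and 10.6% in CORT lambs at an unadjusted p under 0.05. The other 2 probes gave -0.03 and 0.00 in Control lambs and 0.05 and 0.05 in CORT lambs. The cortisol difference in IVS minus that in LV was 0.09 on A_70_P006726 (95% interval -0.48 to 0.67, limma adjusted p = 1.00), 0.08 on A_70_P012621 and 0.04 on A_70_P012622, and 2.02% of all probes passed that test at an unadjusted p under 0.05. These intervals leave room for tissue differences of over 0.3 in either direction on A_70_P006726.

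Each slide held 1 tissue, so tissue and slide cannot be told apart. Slides 1, 2 and 5 were scanned in the same session, and slides 3 and 4 earlier. On those 3 slides alone, a subset chosen after seeing the data, IVS minus LV was 0.29 in Control lambs and 0.26 in CORT lambs on A_70_P006726, with limma p of 0.22 and 0.23 before adjustment. The dim probes passed the unadjusted limit there but not the adjusted one. The values for A_70_P012621 and A_70_P012622 were 0.21 and 0.29 in Control lambs and 0.23 and 0.34 in CORT lambs. Over all 32 arrays 21.1% of probes in Control lambs and 10.6% in CORT lambs passed the unadjusted limit. The share of all probes that passed in the subset was not counted, so nothing is read from these passes. The cortisol difference in IVS minus that in LV was -0.03 on A_70_P006726 in this subset (limma adjusted p = 0.98).

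Lambs of the same treatment differed in RGS2, and that spread was shared by the probes. After centring on the treatment mean, the level of A_70_P012621 followed A_70_P006726 with r = 0.87 in LV and r = 0.89 in IVS over 16 arrays each, and A_70_P012622 with r = 0.84 in both. Ranked by the smaller of the 2 values, these were the first and second of 11211 probes measured on every array of both tissues. The lowest LV Control lambs on A_70_P006726, replicates 5 and 2, were also the lowest for A_70_P012622 and for A_70_P012621, respectively. CORT replicates 2 and 3 in LV, at 8.50 and 8.62, and CORT replicate 1 in IVS, at 8.57, were the CORT lambs whose RGS2 lay below the Control median of their tissue.

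LV and IVS levels were also compared by the lamb numbers in the labels. Across the 8 numbers, LV and IVS levels of A_70_P006726 had r = 0.31 in Control (exact permutation p = 0.46, Spearman rho 0.60, p = 0.13) and r = 0.01 in CORT (exact permutation p = 0.99, Spearman rho 0.29, p = 0.50). The lowest of the 4 adjusted p-values was 0.53. Without the 2 lambs farthest from the LV median r was 0.77 and 0.52 over 6 numbers. Over all probes, 2 of 8 Control and 4 of 8 CORT LV arrays correlated best with the IVS array of their own number, while 8 of 8 Control and 7 of 8 CORT arrays had a mutual best partner in the other tissue, with r of 0.27 to 0.53 and 0.27 to 0.62. The numbers may therefore not mark the same lamb in both tissues, and the values by number say little of single lambs.

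Among the named genes, those whose level most closely followed A_70_P006726 from lamb to lamb were BMPR1B, PRNP, AGTR1, ITGAV and IL5. The likeness is the smaller of r in LV and r in IVS, over 16 arrays each. Of all 11211 probes compared, 61 had r above 0.5 in both tissues and 63 had r below -0.5 in both. Among all these probes the 5 genes ranked 6, 16, 19, 23 and 41, in the order named. AGTR1, the Gq-coupled type 1 angiotensin II receptor, had r = 0.58 in LV and r = 0.65 in IVS. BMPR1B, a bone morphogenetic protein receptor, had 0.70 and 0.66, PRNP, the prion protein, 0.60 and 0.71, ITGAV, the integrin alpha V chain, 0.57 and 0.64, and IL5, an eosinophil cytokine, 0.59 and 0.54. The IL5 probe was near background, past the brightness limit on 10 of 16 LV and 9 of 16 IVS arrays, and its r in IVS was 0.18 after removal of slide means. None of them differed between the treatments in either tissue at an unadjusted limma p under 0.05. AGTR1 differed between CORT and Control by 0.08 ± 0.18 (SE) in both tissues. The AGTR1 value leaned on single arrays, falling to 0.46 without CORT replicate 2 in LV and to 0.49 without CORT replicate 1 in IVS. Those 2 arrays may come from the same lamb. After removal of slide means r was 0.39 and 0.54 for AGTR1, and 1 of the 5 genes, ITGAV, stayed among the first 5. These values share arrays and slides across probes and are given as descriptions.

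Among the named probes, the 3 that ran most against RGS2 read MX2 and PSME2, both known as interferon-induced. MX2, an antiviral GTPase, had r = -0.63 in LV and -0.61 in IVS, and the 2 probes of PSME2, a proteasome activator subunit, had -0.63 and -0.55 for A_70_P003516 and -0.65 and -0.53 for A_70_P003517. In IVS the PSME2 values depended on the processing. They were -0.24 and -0.33 after removal of slide means, and -0.20 and -0.18 with the processed signal. In LV they were -0.48 and -0.51, and -0.58 and -0.65. For MX2 the IVS values were -0.51 and -0.62. The CORT lamb with the lowest RGS2 had the highest MX2 in each tissue, at 13.25 for replicate 2 in LV and 12.97 for replicate 1 in IVS. The next highest CORT lambs were at 9.41 and 9.43. Since the numbers may not match between tissues, these 2 arrays may come from a single lamb. The pattern is therefore not shown to recur in separate animals. Without those arrays r was -0.54 in LV and -0.39 in IVS. MX2 itself differed little by treatment, by -0.18 ± 0.61 (SE) in LV and -0.20 ± 0.60 (SE) in IVS.

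**Figure D4:**
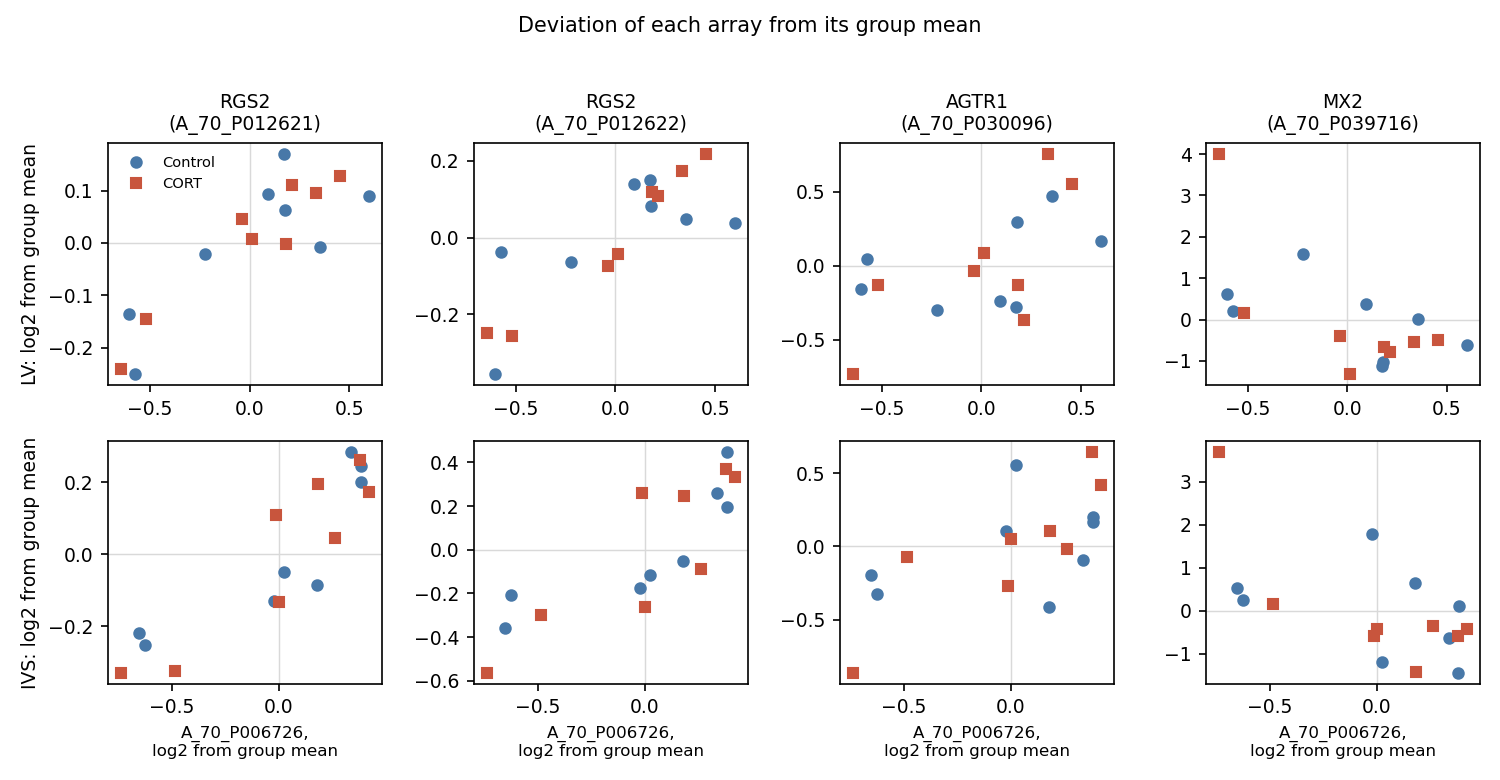
Deviation of each array from its treatment mean (log2) for A_70_P006726 (horizontal axis) against the 2 other RGS2 probes, AGTR1 and MX2 (vertical axes), in LV (top row) and IVS (bottom row), with Control as circles and CORT as squares. The RGS2 probes rise together (r from 0.84 to 0.89) and AGTR1 follows more loosely (r = 0.58 and 0.65). MX2 runs the other way with 1 CORT array at the far upper left in each tissue, possibly of the same lamb.

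Few genes of the surrounding pathway carry a name on the array. Of 26 RGS family genes, RGS2 was the one with a named probe. Of 28 G-protein subunit genes, GNG11, a gamma subunit, was the one tested, and it differed by -0.02 in LV and -0.03 in IVS. None of 13 listed partners of RGS2 had a named probe. Of 44 receptors, 11 genes were tested in each tissue, none was higher at an unadjusted limma p under 0.05, and 3 of 17 probes in LV and 1 of 18 in IVS were lower, against 2.20% and 2.19% of all probes. The median difference of the list was -0.04 in LV and -0.01 in IVS, beside 0.00 and -0.01 for all probes tested.

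The receptor probes that fell read 2 genes that do not signal mainly through Gq. They are named for their unadjusted limma p on these same arrays, so the exact permutation p-values below are no separate support. ADRB1, the main beta adrenergic receptor of cardiac muscle, averaged 8.30 in Control and 8.04 in CORT left ventricles, with SDs of 0.21 and 0.19 (n = 8 each). Its difference was -0.26 ± 0.10 (SE, exact permutation p = 0.024), and all 8 CORT lambs lay below the Control mean. In IVS it was -0.10 ± 0.17 (SE). PTGER3, a prostaglandin E2 receptor that couples mainly to Gi, differed in LV by -0.30 ± 0.11 (SE, exact permutation p = 0.015) on A_70_P041076 and by -0.29 ± 0.10 (SE, exact permutation p = 0.0084) on A_70_P041077. In IVS it differed by -0.36 ± 0.15 (SE, exact permutation p = 0.044) on A_70_P041076, and by -0.29 ± 0.15 on A_70_P041077, which did not pass (exact permutation p = 0.080). None passed the adjustment over all probes.

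Among 5 tested genes of 51 effectors and second-messenger proteins, 1 probe of 7 passed the unadjusted limma test in each tissue, against 3.85% of all probes in LV and 3.59% in IVS. CALM2, which encodes the calcium sensor calmodulin, was higher in CORT left ventricles by 0.15 ± 0.06 (SE, exact permutation p = 0.026). RHOA, a small GTPase downstream of G12/13 receptors, differed in IVS by -0.28 ± 0.13 (SE), which the exact permutation test did not pass (p = 0.058). CALM2 and RHOA are named for passing the limma test on these same arrays, so the exact permutation p of CALM2 is no separate support. No tested probe passed the unadjusted limma test in the lists of glucocorticoid-responsive, immediate early or hypertrophy genes in either tissue. These lists were thinly covered. Of 37 glucocorticoid-responsive genes 9 were tested in LV and 10 in IVS. Of 33 immediate early genes 7 were tested in each tissue, and of 30 hypertrophy genes 2. The lowest p-values in these lists belonged to IVS probes. NR3C1, the glucocorticoid receptor, differed by 0.33 ± 0.18 (SE, exact permutation p = 0.10). EGR1, an immediate early transcription factor, differed by 0.22 ± 0.11 (SE, exact permutation p = 0.063), and NPPC, C-type natriuretic peptide, by -0.08 ± 0.07 (SE, exact permutation p = 0.19). The study lists NR3C1, without a probe name, among the genes higher in CORT left ventricles. The named probe A_70_P016896 differed there by 0.06 ± 0.10 (SE), and the study's entry may rest on another probe.

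Markers of the cell types in the heart wall were read beside RGS2. Of 33 marker probes in 7 lists, none was higher in CORT at an unadjusted limma p under 0.05 in either tissue, 3 were lower in LV and none was lower in IVS, against 1.66% of all probes higher and 2.20% lower in LV and 1.39% and 2.19% in IVS. The 3 were both probes of the fibroblast collagen COL3A1, at -0.28 and -0.27, and that of the monocyte receptor CD14, at -0.16. The median LV difference was 0.05 over the 6 fibroblast probes and -0.13 over the 6 leukocyte probes, beside 0.00 for all probes tested. The summed fibroblast list of 6 probes ranged from 17.37 to 18.16 in Control and from 17.83 to 18.27 in CORT left ventricles, and the summed leukocyte list of 6 probes from 9.46 to 10.98 and from 9.69 to 10.16. Intensities were added before log2 was taken, so the brightest probes of a list set its sum. The COL3A1 probes, with LV group means of 8.60 to 9.02, add little to that of the fibroblast list. The smooth muscle marker CNN1, a contractile protein of vessel walls, differed by 0.44 ± 0.37 (SE) in LV and -0.14 ± 0.22 (SE) in IVS, and followed RGS2 with r = 0.51 in LV and r = -0.51 in IVS. From lamb to lamb within treatments, over 16 arrays per tissue, the summed fibroblast list followed A_70_P006726 with r = 0.60 in LV and -0.11 in IVS, the endothelial list with 0.41 in both, and the adipocyte list with -0.29 in LV and 0.51 in IVS. The leukocyte list had -0.05 and -0.25 and the red cell list -0.23 and 0.01, and the myoglobin probes had 0.36 in LV. The lowest p-values of the remaining lists were those of the endothelial NOS3, at 0.25 ± 0.16 (SE) in IVS, the red cell AHSP, at 0.21 ± 0.15 (SE) in IVS, and the lipid droplet gene PLIN5, at 0.24 ± 0.13 (SE) in LV. The part of cell composition in the RGS2 difference was not tested.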

How the data were processed

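Total RNA was hybridised with 1 dye to Agilent sheep arrays. The authors deposited, per the labels, Agilent Feature Extraction 10.1.1.1 output with mean spot and local background intensity, and, per tissue, a matrix of log2 values, background corrected and quantile normalized with limma, used here as an alternative. From the deposited intensity, normexp correction (offset 50) and quantile normalization (16 arrays per tissue, 32 for tissue comparisons) were run in limma 3.58.1 (R 4.3.3). Control and outlier spots were left out, and a probe had to exceed the 95th percentile of negative controls by 10% on at least 8 arrays. CORT and Control were compared by lmFit and eBayes with Benjamini-Hochberg adjustment, and single probes by exact permutation (scipy 1.17.1). The number of arrays limits precision. The fits were tested on simulated data with independent arrays, so effects of slides or of shared lambs were not covered. Symbols came from the array files and a RefSeq table of 35057 genes (1662 of 15008 probes, 1033 symbols). The authors' matrix names 8807 LV and 9001 IVS probes.

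The members and lists were chosen with earlier results of these data known. Named genes were the RGS2 probes, list members with an unadjusted p under 0.05 in either tissue (otherwise the lowest p), and the 5 named probes most like and 3 most unlike A_70_P006726. The numbers shared by Control and CORT lambs did not pair them. Alternatives covered background, normalization, filters, slide, replicate number, array weights and each array left out.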

Additional observations from a re-analysis of the deposited data

Results flagged for a closer look

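Among the 112 groups of 8 or fewer arrays examined over the RGS2 probes and the other named probes, 7 held an array that stood far from the rest of its group, where chance marks about 1 group in 20. Of the 12 RGS2 groups this was 1: the LV Control lamb with replicate number 5 was at 6.60 on A_70_P012622, with the nearest lamb at 6.89. MX2 was at 13.25 in LV CORT replicate 2 and at 12.97 in IVS CORT replicate 1, the lambs with the lowest RGS2 of their group. The others were NPPC at 6.54 and MB at 17.30 in IVS Control replicate 8, ITGAV at 7.80 in IVS CORT replicate 1, and PSME2 at 14.16 (A_70_P003517) in IVS CORT replicate 4.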

How the results depend on the processing

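The CORT minus Control difference of A_70_P006726 kept its direction under every alternative, at 0.50 to 0.77 in LV and 0.48 to 0.88 in IVS, and at 0.53 to 0.71 and 0.62 to 0.82 with single lambs left out; the unadjusted limma p in IVS stayed between 0.00029 and 0.0044 over all these fits. The number of probes with an unadjusted p under 0.05 was 744 in LV with array weights (444 in the fit reported), and in IVS 879 with slide as a block and 639 with the replicate block (419). With single arrays left out it lay between 228 (IVS Control replicate 3) and 852 (IVS Control replicate 8). The replicate block of Control and CORT numbers is no pairing of lambs, since the lambs of the 2 treatments are different animals. Arrays of the same number still shared some signal, as 4 of 8 number pairs in LV and 6 of 8 in IVS correlated above 0.1. The own number was the best partner for 2 of 8 arrays in LV and 1 of 8 in IVS. Control and CORT arrays of the same number lay on the same slide, except number 5 in IVS, so number and slide cannot be told apart. With the replicate block the A_70_P006726 difference was 0.62 in LV and 0.72 in IVS, as without it, and A_70_P012622 in IVS passed the unadjusted limit at 0.28. The tissue differences were near 0 and most changed sign. In Control lambs IVS minus LV was 0.066 for A_70_P006726 and 0.073 for A_70_P012621 with quantile normalization within each tissue, and 0.29 and 0.21 on slides 1, 2 and 5, where A_70_P012622 kept its sign at 0.29. For A_70_P012621 it was 0.041 with the processed signal, 0.023 without background correction and 0.014 with array weights. For A_70_P012622 it was -0.090 with the processed signal, -0.011 with cyclic loess, -0.0047 with a normexp offset of 0, -0.0054 without background correction and -0.0095 with slide as a random block. In CORT lambs that block gave -0.039 for A_70_P006726 and -0.012 for A_70_P012622, whose cortisol difference between the tissues became -0.0020, and the processed signal gave -0.039 for A_70_P012622. On slides 1, 2 and 5 the cortisol difference between the tissues was -0.030 for A_70_P006726. With single arrays left out, IVS minus LV in Control lambs ranged from -0.16 to 0.019 for A_70_P006726, from -0.068 to 0.0064 for A_70_P012621 and from -0.057 to 0.052 for A_70_P012622. In CORT lambs it ranged from -0.073 to 0.12 for A_70_P006726 and from -0.0041 to 0.12 for A_70_P012622, whose cortisol difference between the tissues ranged from -0.0083 to 0.12. The correlation of LV and IVS levels over lamb numbers became -0.60 in Control and -0.70 in CORT lambs after removal of slide means (exact permutation p = 0.12 and p = 0.054). Of the 5 genes most like RGS2, 1 stayed among the first 5 after removal of slide means and 3 with the processed signal. The cause of these changes was not tested. Signal over background limits the dim probes, whose size depends on the background correction. The number of lambs and a fit without a lamb term limit the tissue comparison to what its 95% intervals allow.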
